A study of Mus musculus with 2 samples.

Results

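The genes described here encode receptors for the classical small neurotransmitters, namely GABA, glycine, glutamate, acetylcholine, serotonin, dopamine, adrenaline and noradrenaline. They were chosen by symbol from the deposited gene table, which lists 18032 genes, and 91 rows matched. Of these, 52 encode subunits of ligand-gated ion channels, 38 encode G protein-coupled receptors or their subunits, and 1, Grin1os, is an antisense RNA of the Grin1 locus and no receptor, so that 90 receptor genes remain. The rule used names only and no measured value, but it was set with earlier results of these data known.

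The study compared 2 states of mouse pluripotent cells by sequencing of polyadenylated RNA, with 1 library for each. The mESC library came from wild-type ES-E14TG2a embryonic stem cells, an established line, held in the naive ground state in serum-free N2B27 medium with LIF at 100 units/ml, the ERK pathway inhibitor PD0325901 at 1 µM and the GSK3 inhibitor CHIR99021 at 3 µM. The cEpiSC library came from wild-type cells of such cultures converted in vitro towards epiblast stem cells: 24 h after plating on fibronectin they went into N2B27 with activin A at 20 ng/ml and FGF2 at 12 ng/ml and stayed there for 2 days. The states therefore differ in medium as well, and effects of medium and state cannot be told apart. With 1 library per state there is no replicate check and no p-value, and less RNA per cell cannot be told apart from fewer cells that make it.

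Neurotransmitter receptors fall into 2 families of design. Ligand-gated channels are assembled from several subunits around a pore and pass ions when the transmitter binds: the GABA-A, glycine, nicotinic acetylcholine and ionotropic serotonin receptors belong to the Cys-loop superfamily, and the AMPA, kainate and NMDA receptors form the ionotropic glutamate group. The remaining receptors act through G proteins. They are best known from neurons and muscle, and pluripotent stem cells are not a tissue in which they carry synaptic signals. Many of the channels need an obligatory partner, so the text gives, for each class, which subunits had RNA and which had none.

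The libraries held 19843719 (mESC) and 19956733 (cEpiSC) estimated counts. Levels are CPM, counts divided by the TMM-scaled size of the library, or TPM, which also allows for transcript length and is used where genes are compared with one another. Differences are log2 ratios of cEpiSC over mESC with a prior count of 2, followed in brackets by the exact 95% interval of the ratio without the prior count. Fold values given for single genes are ratios of CPM without the prior count, so they can differ from the log2 ratio beside them. These intervals cover counting error only. Calls of higher or lower rest on size alone: a ratio of 2-fold or beyond in genes that reached 1 CPM in either library. In the marker lists, all 13 primed or formative genes had cEpiSC levels 2-fold or more above mESC. Of 13 naive genes, 8 were lower and none higher, and their sum was 4910 CPM in mESC and still 2083 CPM in cEpiSC. Other lists were mixed: of 6 mesendoderm genes at 1 CPM or more, 3 were lower and none higher. Of 7 such trophoblast genes, 4 were higher and 2 lower, and of 6 primitive endoderm genes 1 was higher and 3 lower. Of 18 neural and neuronal markers, 9 reached 1 CPM, of which 4 were higher (Neurod1, Pax6, Elavl3 and Elavl4), 1 lower (Tubb3) and 4 within 2-fold. The list's summed level was 195 CPM in mESC and 161 CPM in cEpiSC. Most of it came from Stmn2 (97.4 and 93.7 CPM) and Tubb3 (69.7 and 25.9 CPM), and the fall in Tubb3 exceeded that of the sum. Dcx, Olig2 and Pax3 had 0 counts in both. The part of such markers in the receptor differences was not tested.

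Promoter windows of 4 receptor genes are shown first, picked by their ratios and not as typical of the higher or lower genes. Htr5a and Grin1 had the 2 lowest log2 ratios among receptor genes with a window, and Grm6 and Chrna9 the 2 highest. Each window runs from 250 bases before to 50 bases after a RefSeq transcription start in GRCm38.p6, is written 5′ to 3′ on the strand of the gene, and has every CG dinucleotide in capitals. The Htr5a window is chr5:27841697-27841996 on the plus strand, that of Grin1 chr2:25319138-25319437 on the minus strand, that of Grm6 chr11:50850435-50850734 on the plus strand and that of Chrna9 chr5:65966874-65967173 on the plus strand. The Chrna9 start lies inside the gene's RefSeq span, which begins at 65934854. The end of the Htr5a window, past its start, was not found in a GENCODE vM21 transcript of that gene, unlike the ends of the Grin1, Grm6 and Chrna9 windows.
Htr5a: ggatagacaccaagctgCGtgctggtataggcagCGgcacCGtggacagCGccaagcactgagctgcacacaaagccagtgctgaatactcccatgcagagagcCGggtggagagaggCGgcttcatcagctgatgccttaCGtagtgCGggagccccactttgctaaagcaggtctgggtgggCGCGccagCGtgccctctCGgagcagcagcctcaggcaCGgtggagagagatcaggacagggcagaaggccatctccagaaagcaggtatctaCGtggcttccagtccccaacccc
Grin1: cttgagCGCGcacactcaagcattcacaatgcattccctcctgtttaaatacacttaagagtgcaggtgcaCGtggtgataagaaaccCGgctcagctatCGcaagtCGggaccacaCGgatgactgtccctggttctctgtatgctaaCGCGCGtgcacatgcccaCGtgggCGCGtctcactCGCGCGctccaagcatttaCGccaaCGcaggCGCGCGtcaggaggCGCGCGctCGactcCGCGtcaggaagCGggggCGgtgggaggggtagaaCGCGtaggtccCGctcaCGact
Grm6: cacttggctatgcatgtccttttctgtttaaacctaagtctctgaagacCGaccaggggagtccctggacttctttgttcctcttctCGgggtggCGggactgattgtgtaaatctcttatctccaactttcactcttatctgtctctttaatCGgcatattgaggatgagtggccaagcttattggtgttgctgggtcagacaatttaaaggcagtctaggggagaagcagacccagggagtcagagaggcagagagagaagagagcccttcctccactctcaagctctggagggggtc
Chrna9: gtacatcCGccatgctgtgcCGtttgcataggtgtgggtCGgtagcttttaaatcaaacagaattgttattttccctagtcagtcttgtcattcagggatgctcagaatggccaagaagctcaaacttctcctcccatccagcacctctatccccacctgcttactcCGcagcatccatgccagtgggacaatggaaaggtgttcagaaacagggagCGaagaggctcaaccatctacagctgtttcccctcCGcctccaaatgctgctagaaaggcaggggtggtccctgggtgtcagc
CG dinucleotides numbered 14 in Htr5a and 33 in Grin1, both lower in cEpiSC, against 4 in Grm6 and 6 in Chrna9, both higher. The 14 of Htr5a were the fewest among the 6 lower receptor genes with a window. They equalled the most among the 6 higher ones.

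Most receptor genes were silent or close to it in both states. Of the 91 rows, 28 (30.8%) reached 1 CPM in a library, against 73.4% of all listed genes. No count in either library was found for 20 rows (22.0%), against 6.37% of all listed genes. A count of 0 allows up to 0.155 CPM in mESC and 0.147 CPM in cEpiSC, taking 3 counts as the limit. Another 43 rows, Grin1os among them, had counts but stayed under 1 CPM in both libraries. Of these, 12 had at least 10 counts in a library and are named with their class, and the other 31 together held 55 counts in mESC and 70 in cEpiSC. Receptor rows took 0.0303% of all counts in mESC and 0.0170% in cEpiSC.

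**Figure D1:**
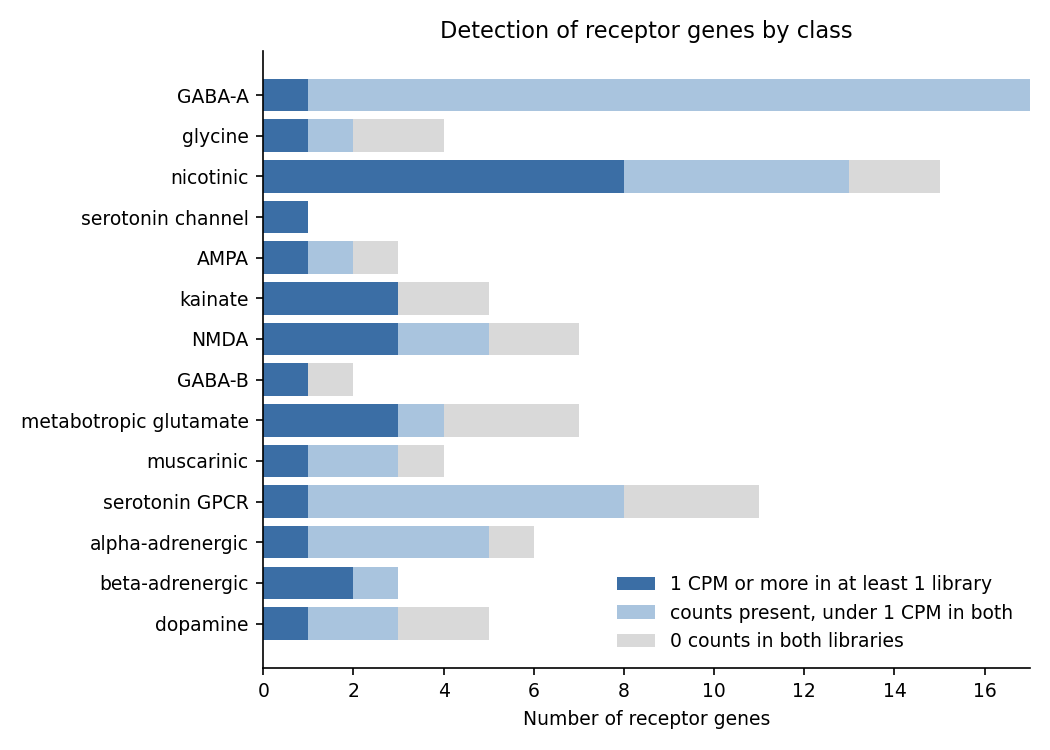
Number of receptor genes in each class (horizontal axis), split into those reaching 1 CPM in a library, those with counts but under 1 CPM in both, and those with 0 counts in both. Nicotinic receptors have the most genes at 1 CPM or more (8 of 15), while 16 of 17 GABA-A genes hold counts under that level.

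Among the 28 receptor genes at 1 CPM or more, 10 were at least 2-fold higher in cEpiSC (35.7%), 7 were lower (25.0%) and 11 lay within 2-fold. Of all 13243 genes at that level, 13.6% were higher and 9.25% lower. Most of the receptor genes were scarce, and scarce genes differed more often throughout the table. Of 21 receptor genes whose higher library lay from 1 to 10 CPM, 8 were higher (38.1%) and 4 lower (19.0%), beside 32.8% and 12.9% of all 3445 such genes. The share higher in this band was thus near the background. At 10 CPM or more, 2 of 7 receptor genes were higher (Grik5 and Chrnb4) and 3 lower (Grik3, Grin1 and Htr5a), beside 6.81% and 7.96% of 9798 genes. By the stricter measure of an interval lying beyond 2-fold over its whole length, 5 genes were higher (background 9.15%) and 4 lower (background 6.34%). In the band from 1 to 10 CPM these were 5 of 21 and 1 of 21, beside 20.2% and 6.59% of all genes there. At 10 CPM or more they were 0 of 7 and 3 of 7, beside 5.26% and 6.26%. The median log2 ratio of the 28 was 0.46, beside -0.02 for all genes at that level. The call counts fell to 3 higher and 3 lower with the deposited TPM, and to 2 and 3 with FPKM, both with a pseudocount of 1, which shrinks the ratios of scarce genes.

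**Figure D2:**
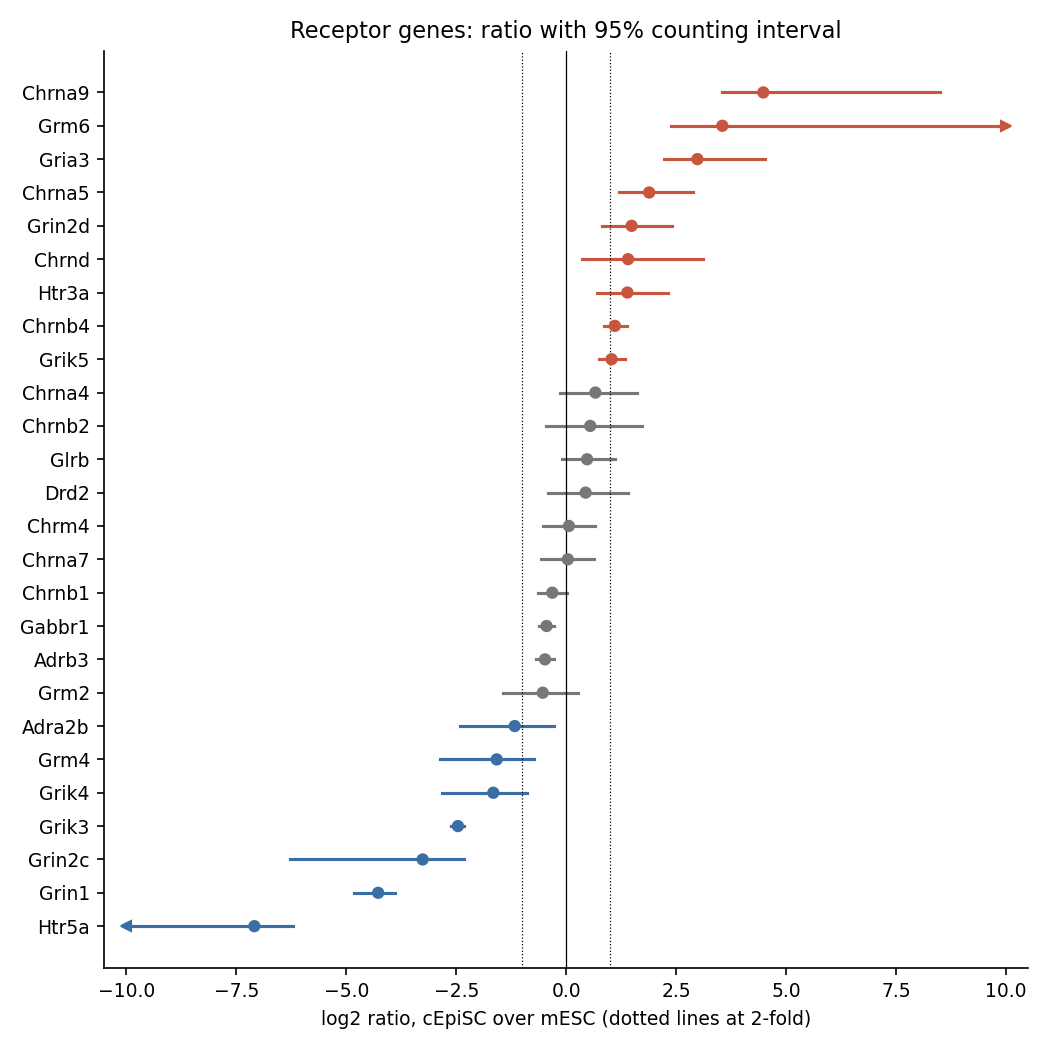
Log2 ratio of cEpiSC over mESC (horizontal axis) for 26 of the 28 receptor genes at 1 CPM or more, with exact 95% counting intervals as lines. Arrowheads mark intervals that run beyond the axis, colours mark genes at least 2-fold higher (red), lower (blue) or neither (grey), and Chrna9 (4.48) and Htr5a (-7.09) stand at the ends.

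Channels and G protein-coupled receptors were also counted apart. Of 18 channel genes at 1 CPM or more, 9 were higher, 4 lower and 5 within 2-fold; their median log2 ratio was 0.85. Of 10 G protein-coupled receptor genes, 1 was higher (Grm6), 3 lower (Htr5a, Grm4 and Adra2b) and 6 in between, the median being -0.47. Of all genes at that level, 13.6% were higher and 9.25% lower (median -0.02), and from 1 to 10 CPM 32.8% and 12.9% (median 0.36). The channel and G protein-coupled groups are small, and the difference between them was not tested. In summed level per length, receptor RNA went from 121.8 TPM in mESC to 86.8 TPM in cEpiSC. The lower sum rests on 3 genes, Grik3, Grin1 and Htr5a, set aside after their values were seen: without them (and without Grin1os) the sum was 67.7 TPM in mESC and 81.2 TPM in cEpiSC. In mESC the leading receptor transcripts per length were Grik3 (27.0 TPM), Grin1 (18.9 TPM), Gabbr1 (15.6 TPM) and Adrb3 (15.06 TPM), together 62.8% of the receptor sum. In cEpiSC the order was Chrnb4 (12.2 TPM), Gabbr1 (11.1 TPM), Adrb3 (10.35 TPM) and Grik5 (6.75 TPM), together 46.5%. Adrb3 and Gabbr1 lay close to each other in both libraries, while Grik3 dropped from the first place to the sixth.

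**Figure D3:**
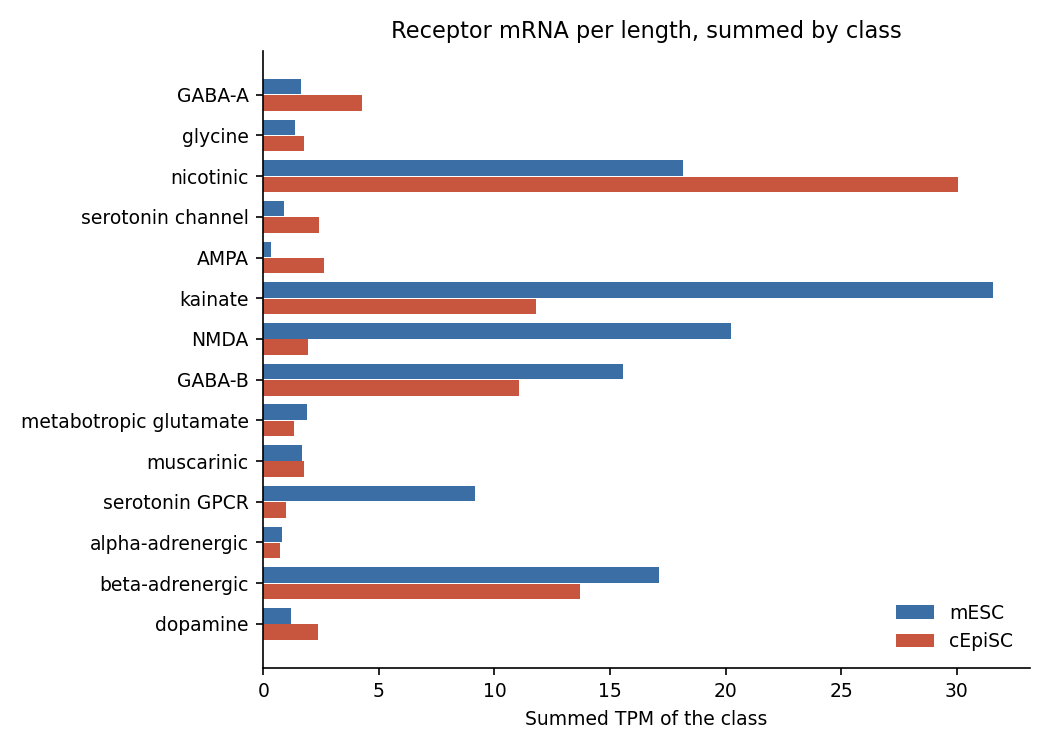
Summed TPM (level per transcript length, horizontal axis) of each receptor class in mESC and cEpiSC, 1 library each. The kainate sum goes from 31.6 to 11.8 and the NMDA sum from 20.2 to 1.93, while the nicotinic sum goes from 18.1 to 30.1.

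Of the class sums, those of the kainate and NMDA receptors for glutamate differed most in TPM. Kainate receptors are tetramers in which Grik1, Grik2 and Grik3 encode subunits able to form channels alone and Grik4 and Grik5 encode partner subunits that need one of those. Grik1 and Grik2 had 0 counts in both libraries, so Grik3 was the sole subunit of the first kind with detected RNA. Grik3 (Entrez 14807, chr4:125490259-125714173) had 2569 counts in mESC and 491 in cEpiSC. That is 133 and 24.0 CPM, 5.53-fold lower in cEpiSC, with a log2 ratio of -2.46 (-2.61 to -2.33). It was the most abundant receptor transcript of mESC and remained well detected after conversion. The partner subunits went opposite ways. Grik5 (chr7:25009849-25075694) had 137 and 298 counts, 7.08 and 14.6 CPM (1.03 [0.74 to 1.34]), whereas Grik4 (chr9:42518182-42945000) had 43 and 13 counts, 2.22 and 0.635 CPM (-1.66 [-2.83 to -0.88]). In mESC Grik3 thus made up 85.6% of the kainate TPM, and in cEpiSC Grik5 led with 57.2%. Grik5 lay just beyond the 2-fold limit, and its interval reached below it.

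NMDA receptors are tetramers that contain the glycine-binding subunit encoded by Grin1 together with glutamate-binding subunits encoded by the Grin2 genes. Grin1 (Entrez 14810, chr2:25291177-25319187) had 787 counts in mESC and 41 in cEpiSC, or 40.7 and 2.00 CPM. It was 20.3-fold lower, with a log2 ratio of -4.28 (-4.83 to -3.89), the lowest ratio among receptor genes at 1 CPM or more after that of Htr5a. In mESC its count was not whole (786.94), so some reads were shared with other loci, whereas the 41 in cEpiSC were whole. How many reads were shared cannot be told from this, so Grin1 is less certain than the interval says. The antisense gene Grin1os, which overlaps it, was listed with 5.06 counts in mESC and 0 in cEpiSC. The Grin2 genes differed in direction. Grin2c (chr11:115249169-115267297) had 44 and 3 counts (-3.26 [-6.29 to -2.31]). Grin2d (chr7:45831883-45871194) had 19 and 60 counts, 0.982 and 2.93 CPM (1.49 [0.81 to 2.41]). Grin2a, under 1 CPM in both, had 1 and 11 counts, and Grin2b had 3 and 0. The modulatory subunit genes Grin3a and Grin3b had 0 counts in both. Grin1 made up 93.4% of the NMDA TPM in mESC, while in cEpiSC Grin2d and Grin1 stood side by side at 0.88 and 0.87 TPM.

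AMPA receptors carry most fast excitation in the brain. Of the 3 listed genes, Gria1 had 0 counts in both libraries and Gria4 had 1 and 3. Gria3 (Entrez 53623, chrX:41400819-41678601) was the member with a clear signal, at 8 counts in mESC and 81 in cEpiSC, or 0.413 and 3.96 CPM. It was 9.57-fold higher in cEpiSC (2.98 [2.21 to 4.52]). Among metabotropic glutamate receptors, Grm6, known from bipolar cells of the retina (chr11:50850369-50866208), went from 0 counts to 22 in cEpiSC. Against a floor of 3 counts in mESC it was 6.93-fold higher. Its interval, which adds the counting error of cEpiSC, began lower, at a log2 ratio of 2.37. Grm4, a presynaptic receptor of the same inhibitory kind (chr17:27422387-27513826), had 35 and 11 counts (-1.58 [-2.88 to -0.74]), and Grm2 had 31 and 22 (-0.53 [-1.43 to 0.26]), a difference not detectable at this depth. Grm3 and Grm5 had 0 counts in both, and Grm8 had 0 and 1.

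**Figure D4:**
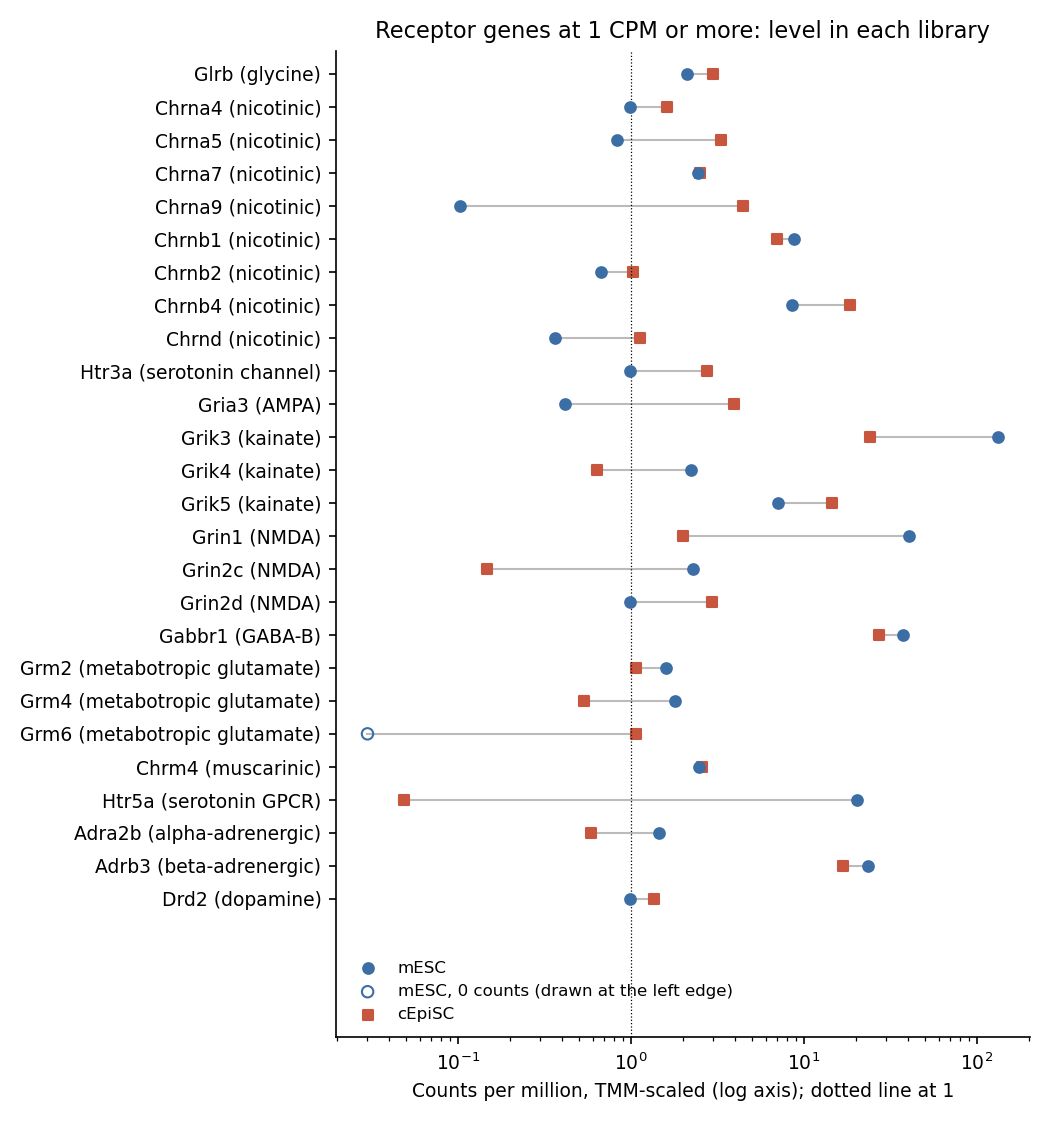
Level of 26 of the 28 receptor genes at 1 CPM or more in mESC (blue circles) and cEpiSC (red squares), in CPM on a log axis, grouped by class. Grik3 at 133 CPM in mESC is the highest point, and Grm6, with 0 counts in mESC, is drawn as an open circle at the left edge.

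Nicotinic acetylcholine receptors were the class with the most RNA in cEpiSC. These pentamers are built from muscle subunits (Chrna1, Chrnb1, Chrnd, Chrng and Chrne) or from neuronal and sensory subunits. Of 15 listed genes, 8 reached 1 CPM, of which 4 were higher (Chrna9, Chrna5, Chrnd and Chrnb4), none was lower and 4 lay within 2-fold. Of all genes at that level, 13.6% were higher and 9.25% lower, and from 1 to 10 CPM, where 7 of the 8 lay, 32.8% and 12.9%. The summed counts were 450 and 863. Chrna9 (Entrez 231252, chr5:65934854-65977486), which encodes a subunit of the receptor of cochlear hair cells, had 2 counts in mESC and 91 in cEpiSC, or 0.103 and 4.45 CPM (4.48 [3.53 to 8.49]). That was the highest ratio of all receptor genes at 1 CPM or more. Its usual partner Chrna10 had 0 counts in mESC and 11.58 in cEpiSC, partly shared with other loci and under 1 CPM in both.

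Chrna5, Chrna3 and Chrnb4 lie side by side on chromosome 9, and their products join in receptors of autonomic ganglia. Chrnb4 (chr9:55028154-55048953) had 166 and 380 counts, 8.58 and 18.6 CPM (1.11 [0.85 to 1.39]). Chrna5 (chr9:54980827-55011420) had 16 and 68 counts, 0.827 and 3.32 CPM (1.88 [1.21 to 2.89]). Chrna3, which lies between them and encodes the ligand-binding partner of both, had 0 and 2 counts. So both flanking genes were higher in cEpiSC, and the gene between them was close to silent in both libraries. Of the subunits that form the main brain receptors, Chrna7 (47 and 51 counts, 0.04 [-0.56 to 0.64]), Chrna4 (19 and 33, 0.66 [-0.14 to 1.61]) and Chrnb2 (13 and 21, 0.54 [-0.45 to 1.73]) showed no difference detectable at this depth. Chrna2 and Chrna6 had 0 counts in both.

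All muscle-type subunit genes had counts in at least 1 library, but only Chrnb1 and Chrnd reached 1 CPM. Chrnb1 (chr11:69784036-69795966) was the most abundant at 169 and 143 counts, 8.73 and 6.99 CPM (-0.32 [-0.65 to 0.01]). Chrnd (chr1:87190597-87200070) had 7 and 23 counts (1.41 [0.37 to 3.10]). Chrna1, which carries the main ligand-binding site, stayed under 1 CPM with 10.29 and 14.67 counts, partly shared with other loci. Of the subunits that replace each other between fetal and adult muscle, Chrng had 0 and 4 counts and Chrne 1 and 20. Chrne lay just under the level filter at 0.977 CPM in cEpiSC, and Chrnb2 just over it at 1.03 CPM. Of 8 muscle markers, 2 reached 1 CPM: Des was higher (389 and 891 counts) and Tnnt2 lower (44 and 11), and the list summed to 22.8 and 46.2 CPM. The part of such markers in the muscle-type subunits was not tested. Muscarinic receptors, the G protein-coupled receptors for acetylcholine, were represented by Chrm4 alone, at 48 and 53 counts (0.06 [-0.53 to 0.66]). Chrm1 and Chrm3 had at most 2 counts, and Chrm2 had 0 in both.

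GABA-A receptors, the main inhibitory channels of the brain, usually combine alpha, beta and gamma subunits. All 17 listed genes had at least 1 count in some library, and 16 of them stayed under 1 CPM. Gabra5, an alpha subunit gene (Entrez 110886, chr7:57407669-57591016), was among these 16 at 0.782 CPM in cEpiSC and so was not called. It went from 0 to 16 counts, 5.04-fold higher in cEpiSC against the floor of 3 counts. The interval, which adds the counting error of cEpiSC, began lower, at a log2 ratio of 1.87. The gamma subunit gene Gabrg3 had 1 count in each library. Gabra4 had 1 and 14 counts and the retinal subunit gene Gabrr1 7 and 18. Gabrp went the other way with 15 and 3. No gamma subunit gene exceeded 1 count in either library.

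The GABA-B receptor is a heterodimer: Gabbr1 encodes the part that binds GABA and Gabbr2 the part that brings it to the surface and couples to G proteins. Gabbr1 (Entrez 54393, chr17:37045966-37074305) had 719 and 557 counts, 37.2 and 27.2 CPM, 1.37-fold lower in cEpiSC (-0.45 [-0.61 to -0.29]). Gabbr2 had 0 counts in both libraries. In glycine receptors, alpha subunits bind the ligand and the beta subunit anchors the channel. The beta subunit gene Glrb had 41 and 61 counts (0.47 [-0.10 to 1.10]), Glra1 and Glra2 had 0 in both, and Glra4 had 3 and 0.

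The serotonin receptors held the lowest ratio of all receptor genes at 1 CPM or more. Htr5a (Entrez 15563, chr5:27841716-27855086), a G protein-coupled receptor, had 392 counts in mESC and 1 in cEpiSC, or 20.3 and 0.0489 CPM, with a log2 ratio of -7.09 (-14.00 to -6.21). It made up 87.7% of the TPM of the serotonin G protein-coupled receptors in mESC. Its closest relative Htr5b stayed scarce, at 5 and 12 counts, and so did Htr4 (6 and 12) and Htr2b (11 and 1). Htr1a, Htr1f and Htr2a had 0 counts in both. Htr3a, the subunit of the serotonin-gated channel that can form it alone (chr9:48899213-48911152), was higher in cEpiSC at 19 and 56 counts, 0.982 and 2.74 CPM (1.39 [0.71 to 2.31]).

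Of the receptors for adrenaline, noradrenaline and dopamine, 4 genes reached 1 CPM and 1 of these was called. Adrb3, the beta receptor best known from adipose tissue (Entrez 11556, chr8:27225776-27230845), had 453 and 342 counts, 23.4 and 16.7 CPM (-0.48 [-0.69 to -0.28]). Adrb1 had 4 and 9. Among alpha receptors, Adra2b (chr2:127363179-127367221) was lower with 28 and 12 counts (-1.17 [-2.41 to -0.28]), an interval that reaches close to no difference. The other 5 alpha receptor genes held at most 7 counts. For dopamine, Drd2 had 19 and 28 counts (0.44 [-0.41 to 1.40]) and Drd4, under 1 CPM, 3 and 16. Drd5 had 2 in each library, and Drd1 and Drd3 had 0 in both.

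Several of these genes share their locus with a gene on the other strand, and whether counting used strand is not given in the sources used here, so reads from such overlaps may be mixed. In GENCODE vM21, 11 of the 28 receptor genes at 1 CPM or more overlap such a gene. Of these 11, 8 were called higher or lower, beside 10 higher and 7 lower among all 28. The share for all genes of the table was not computed, and the part of overlaps in the calls was not tested. For Grin2d (5607 bases shared with Kdelr1) and Chrnb2 (7252 bases shared with Adar) the partner is a protein-coding gene, so these values are less certain than their intervals say.

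Promoter windows were found for 66 of the 91 rows, credited to RefSeq on GRCm38.p6, and for 21 of the 28 genes at 1 CPM or more. The 6 genes with a window that were at least 2-fold higher in cEpiSC had few CG dinucleotides, with a median of 8 and a range from 4 to 14. The 6 that were lower had a median of 31 and a range from 14 to 50, with Grik3 (50) and Grik4 (42) at the top and Htr5a at the bottom. The 9 within 2-fold had a median of 23. Over all genes of the table, the medians were 16 for 1364 genes at least 2-fold higher and 17 for 929 lower, so no such gap was seen there. The starts used for Chrna9, Grin2d and Grik5 lie 32.3, 4.51 and 3.32 kb inside the RefSeq span of the gene, whereas those of all 6 lower genes lie within 1 kb of its 5′ end. The 3 higher genes with a start within 1 kb had 4 (Grm6), 5 (Chrna5) and 14 (Chrnb4). The part of window position in the gap was not tested. Some genes have several windows and the most upstream start was used; with the window richest in CG instead, the median of the higher receptor genes became 11 because Chrna5 has a second start with 25. Genes without a window included Gria3, Chrnd and Htr3a among the higher and Grm4 among the lower. The pattern was seen after the calls were known, in few genes, and is given as a description.

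**Figure D5:**
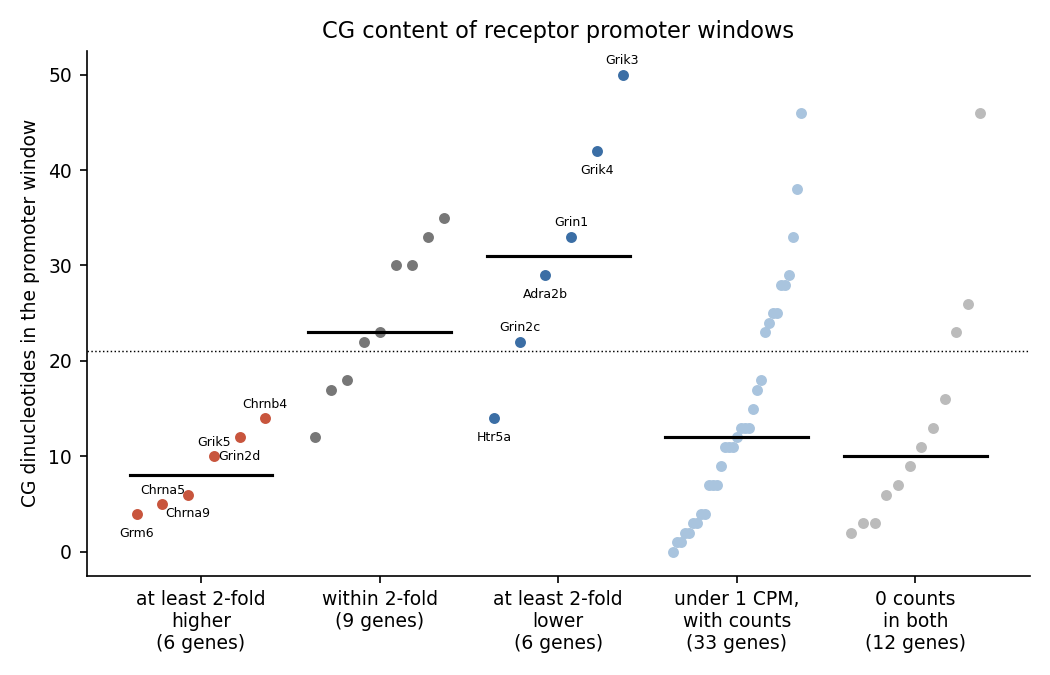
Number of CG dinucleotides in the 300-base promoter window (vertical axis) of 66 receptor rows, grouped by their ratio or level, with 1 point per gene and a bar at the group median. The dotted line is the median of all genes at 1 CPM or more (21). All 6 higher genes lie below it, and so do Htr5a (14) of the lower genes and some genes within 2-fold.

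The windows were also searched on both strands for fixed letters. RE1 is the element bound by REST, a known repressor of neuronal genes outside neurons. Its left arm, TTCAGCACC, was in 1 of 66 receptor windows (Grm2) and in 0.460% of 14117 windows of all listed genes. Its right arm, GGACAGC, was in 6 receptor windows (9.09%), those of Drd2, Grm2, Htr2a, Htr5a, Glra2 and Glrb, and in 7.43% of all windows. After these results were seen, the letters GCACC and GGACAGC with any 2 bases between them, a form that contains the right arm, were searched. They were found in Htr5a alone among receptor genes, at bases 37 to 50 of the window printed above, and in 10 windows of all genes (0.0708%). The E-box CACGTG was in 6.06% of receptor windows and 9.21% of all, and the TATA letters TATAAA in 9.09% and 8.95%. A match describes the letters and not a bound site.

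Genes that make, move, anchor or relay the transmitter signal were taken from 4 lists, whose counts stand beside 13.6% higher and 9.25% lower among all genes at 1 CPM or more (32.8% and 12.9% from 1 to 10 CPM). For synthesis and breakdown, 16 of 24 genes reached 1 CPM, of which 3 were higher, 2 lower and 11 in between (median log2 ratio -0.01), shares close to those of all genes. Gad1, which encodes a GABA-synthesising enzyme, had 25 and 3 counts (-2.49 [-5.51 to -1.43]), and Ddc, the decarboxylase that makes dopamine and serotonin, had 667 and 295 (-1.25 [-1.46 to -1.06]). The histamine enzyme gene Hdc had 4 and 25 counts (2.11 [1.03 to 4.55]) and Tph2, for neuronal serotonin synthesis, 6 and 23 (1.58 [0.52 to 3.44]). Abat, for GABA breakdown, was named after its value was seen and was the remaining higher gene (43 and 100).

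Of 23 listed transporter genes, 8 reached 1 CPM, of which 4 were higher, 1 lower and 3 in between (median 1.01), beside 13.6% and 9.25% of all genes. The 2 glutamate uptake carriers of the Slc1 family at 1 CPM or more differed in opposite directions, and Slc1a2 of that family had 0 counts in both libraries. Slc1a3 had 21 counts in mESC and 463 in cEpiSC (4.26 [3.75 to 5.09]), and Slc1a1 had 1513 and 383 (-2.06 [-2.23 to -1.90]). The glycine carrier gene Slc6a5 had 0 and 21 counts, 6.62-fold higher against the floor. The interval, which adds the counting error of cEpiSC, began lower, at a log2 ratio of 2.30. Slc29a4, a carrier of monoamines named after its value was seen, had 361 and 842.

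For assembly and anchoring, 32 of 49 listed genes reached 1 CPM, of which 11 were higher, 5 lower and 16 in between (median 0.21), beside 13.6% and 9.25% of all genes. Cacng7, which encodes an auxiliary subunit of AMPA receptors, had 55 and 1456 counts (4.60 [4.26 to 5.06]), in cells where Gria3 reached 3.96 CPM. The postsynaptic adhesion gene Nlgn3 had 1 and 71 counts (4.55 [3.54 to 11.39]), the scaffold gene Dlg4, which encodes PSD-95, 3 and 45 (3.17 [2.19 to 6.16]) and the AMPA receptor adaptor gene Grip2 8 and 91 (3.15 [2.39 to 4.68]). The 5 lower genes were named after their values were seen: Dlgap3 (3437 and 538 counts), Rapsn, which clusters the muscle nicotinic receptor (164 and 37), Cacng5 (25 and 4), Dlgap1 (133 and 66) and Gabarap (2220 and 1132). With library totals alone for scaling, 3 were lower. Of the genes that relay signals from G protein-coupled receptors, 30 of 36 reached 1 CPM, with 6 higher, 1 lower and 23 in between (median 0.14), beside 13.6% and 9.25% of all genes. Adcy7, an adenylate cyclase gene, had 8 and 152 counts (3.87 [3.15 to 5.40]). The G protein alpha subunit genes Gna14 and Gnao1 had 2 and 31 counts (2.99 [1.90 to 6.98]) and 12 and 68 (2.25 [1.52 to 3.44]), and the beta subunit gene Gnb4 had 180 and 521 (1.44 [1.21 to 1.71]). The lower gene, Gnal, was named after its value was seen and had partly shared reads (146 and 72 counts).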

How the data were processed

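Polyadenylated RNA of 2 mouse cell populations, mESC and cEpiSC, was sequenced with 1 library each. Tools named in the submitters' processing notes are RSEM 1.3.1, HISAT2, Bowtie2 and DESeq2 1.34.0, with the build GRCm38.p6; for the role of each tool, the annotation and strand use in counting, the entry is "not given in the sources used here". Per the file headers, the deposited table holds read counts, TPM and FPKM. The deposited counts are estimated counts, since 11.3% (mESC) and 11.9% (cEpiSC) of genes differ from whole numbers by over 0.005. The TPM values were length-scaled by the authors and have equal sums. The FPKM values, also deposited by the authors, sum to 543589 (mESC) and 590682 (cEpiSC). The table had 0 further sample columns.

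After rounding, TMM factors (0.975 and 1.03) were taken over the whole table with edgeR 4.0.16 (R 4.3.3). With no residual degrees of freedom there was no test: calls are by size (2-fold) among genes reaching 1 CPM in either library. Intervals are Clopper-Pearson at 95%. For a count of 0, 3 counts in that library served as the floor. The intervals rest on the counts of 1 library per state and so cover counting error only. Reads were amplified without molecular identifiers, and the intervals make no allowance for that. The computation was tested on simulated data. Receptor rows were matched by symbol, and spans were joined by Entrez identifier to a RefSeq table of GRCm38.p6 (91 of 91). The naming rule takes every receptor gene at 1 CPM or more, others with at least 10 counts, and in each list up to 4 genes with the largest ratio beyond 2-fold; a few such genes enter the counts but are not reported by name here. Receptor genes and lists were chosen with earlier results of these data known. Remaining computation used Python 3.11.15.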

Additional observations from a re-analysis of the deposited data

How the results depend on the processing

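No paired analysis was possible because each state has 1 library, and for the same reason no library could be left out. The 28 receptor genes at 1 CPM or more kept direction and call with DESeq2 1.42.0 size factors, library totals, prior counts of 0.5 and 5, no filter and ratios centred on transcript length, and so did the 9 left by a filter at 5 CPM. No called gene reversed in any setting. A pseudocount of 1 took 11 of them (TPM) and 12 (FPKM) inside 2-fold. Counts of receptor genes were 21 higher and 15 lower without the filter, 3 and 3 at 5 CPM (median -0.45, main 0.46), 3 and 3 with TPM, and 2 and 3 with FPKM. For synthesis and breakdown they were 5 and 4 without the filter, and 0 higher and 1 lower at 5 CPM, with TPM and with FPKM. Transporters gave 9 higher without the filter and 2 at 5 CPM (median 0.36), with TPM (median 0.36) and with FPKM (median 0.25). Assembly and anchoring gave 4 higher at 5 CPM, 6 higher and 3 lower with TPM, 3 higher and 2 lower with FPKM, and 3 lower with library totals. Signal relay gave 3 higher and 0 lower with TPM and with FPKM, and 0 lower after centring on length. A filter tests fewer or more genes and a pseudocount shrinks low values by construction; for the other settings the cause was not tested. Depth limits the scarce genes: for Grm2, at 31 and 22 counts, the interval ran from -1.43 to 0.26.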
